A study of Mus musculus with 8 samples.

Results

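Glutathione transferases and genes linked to the redox regulator NRF2 were followed in mouse liver RNA-seq as 37 genes, found by matching each listed symbol to the gene column of the deposited table of 21358 genes. The 37 genes comprised 20 transferases, 10 enzymes of the glutathione and thioredoxin systems, the reductases and hydrolase Nqo1, Cbr1, Cbr3 and Ephx1, the cystine transporter Slc7a11, and the regulators Nfe2l2 and Keap1. The study sequenced liver from 4 mice labelled starvation glucose (SG, libraries 101, 103, 104 and 105) and 4 labelled feeding glucose (FG, libraries 93, 94, 95 and 96). All 8 livers followed 22 weeks of fasting on alternate days, and the question was how glucose taken in the fasting state or in the fed state bears on hepatic transcripts. The title describes the animals as a model of metabolic dysfunction. Strain, sex, age, glucose dose, the time of collection and the interval since the last meal were not stated. Sex could be read from the transcripts: Xist, the transcript of the inactive X chromosome, was at most 0.00891 FPKM in SG and 0.00572 FPKM in FG. The Y-linked genes Ddx3y, Eif2s3y, Kdm5d and Uty had reads in all 8 libraries, with Ddx3y at 4 to 19 FPKM in SG and 0.904 to 14.2 FPKM in FG, as in male liver. Any difference in the other unstated factors cannot be told apart from the group.

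Glutathione transferases join the tripeptide glutathione to electrophilic compounds, and the alpha, mu and pi classes are abundant in rodent liver. KEAP1 holds the transcription factor NRF2, the product of Nfe2l2, for degradation. When electrophiles or oxidants modify KEAP1, NRF2 accumulates and, with small MAF proteins, binds antioxidant response elements near genes for glutathione synthesis, thioredoxin reduction and detoxification. The nuclear receptors CAR and PXR also induce several hepatic transferases, and some transferases are under feeding and hormonal control.

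Expression was given as FPKM, fragments scaled by transcript length and by the counted fragments of the library, which allows levels to be compared between genes. Counted fragments numbered 36545128 to 39214619 in SG libraries and 38253764 to 41977438 in FG libraries. Genes at 1 FPKM or more in at least 4 of the 8 libraries were tested, which kept 9867 genes and 35 of the 37; Cbr3 and Slc7a11 fell below. Differences are SG minus FG on log2(FPKM + 1), a scale that understates the change of low genes, with limma and Benjamini-Hochberg adjustment over all tested genes, and a change was called at an adjusted p below 0.05. Across all tested genes 15.6% were called lower in SG and 3.73% higher, 19.4% in either direction, and the median difference was -0.135. Rescaling libraries by median ratios moved that median to 0.006 and the share called lower to 4.71%. On the first principal component, which held 45.4% of the variance, FG 93 and FG 95 lay at -27.1 and -31.4, apart from FG 94 and FG 96 at -10.2 and -12.3. The second component, with 21% of the variance, set FG 93 at 22 and FG 95 at -17.9, the opposite ends of the FG libraries. Results are also given without FG 93 and FG 95, a choice made after seeing that both stood apart on many of the 37 genes. That choice used the values of these genes, so smaller differences without the pair were partly fixed in advance. The hepatocyte marker Alb was at 35965 to 49861 FPKM in SG and 38211 to 45639 FPKM in FG. Alb was not called, but 3 of the 7 hepatocyte markers, Apoa1, Cps1 and Serpina1a, were called higher in SG.

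The genes were mostly lower in SG liver. Of the 35 tested, 14 fell and 0 rose by limma, beside the 15.6% of all tested genes that fell. At an unadjusted p below 0.05, 23 were lower and 0 higher. The share of all tested genes at that unadjusted threshold is not given, so the unadjusted counts cannot be read against a background. Voom on recovered fragments called 12 lower and 0 higher, where it called 15.2% of all genes lower. The sign of the difference was negative in 32 of 35, against 69.9% of all tested genes, and the median difference of the 35 was -0.42, or -0.29 relative to the median of all genes. All 4 SG values lay below all 4 FG values for 17 of the 35, against 21.8% of tested genes, and all 4 lay above for 0 of the 35, against 4.35%. After median-ratio scaling 7 genes remained called lower (Ephx1, Gstm1, Gstm3, Gstm6, Nfe2l2, Prdx1 and Srxn1) and the median difference was -0.25. Without FG 93 and FG 95, limma called 0 of the 35, where 1.48% of all genes were called lower and 2.21% in either direction. In that fit 10 of the 35 were lower and 0 higher at an unadjusted p below 0.05, again with no background share given. The median difference of the 35 was then -0.22, against -0.117 for all tested genes. The count of the 35 called lower also moved with single libraries. It was 3 without FG 93 (6.3% of all genes lower), 7 without FG 95 (8.27%), 8 without SG 103 (8.83%), 8 without SG 104 (8.55%) and 7 without SG 105 (8.24%), while without FG 96 it was 16 (10.9%). With no filter it was 5 (4.28%), and after quantile normalization it was 10 (6.24%). With 4 libraries against 4, the smallest two-sided exact permutation p is 0.0286, and in bulk liver fewer cells of a type and less RNA per cell cannot be told apart.

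**Figure D1:**
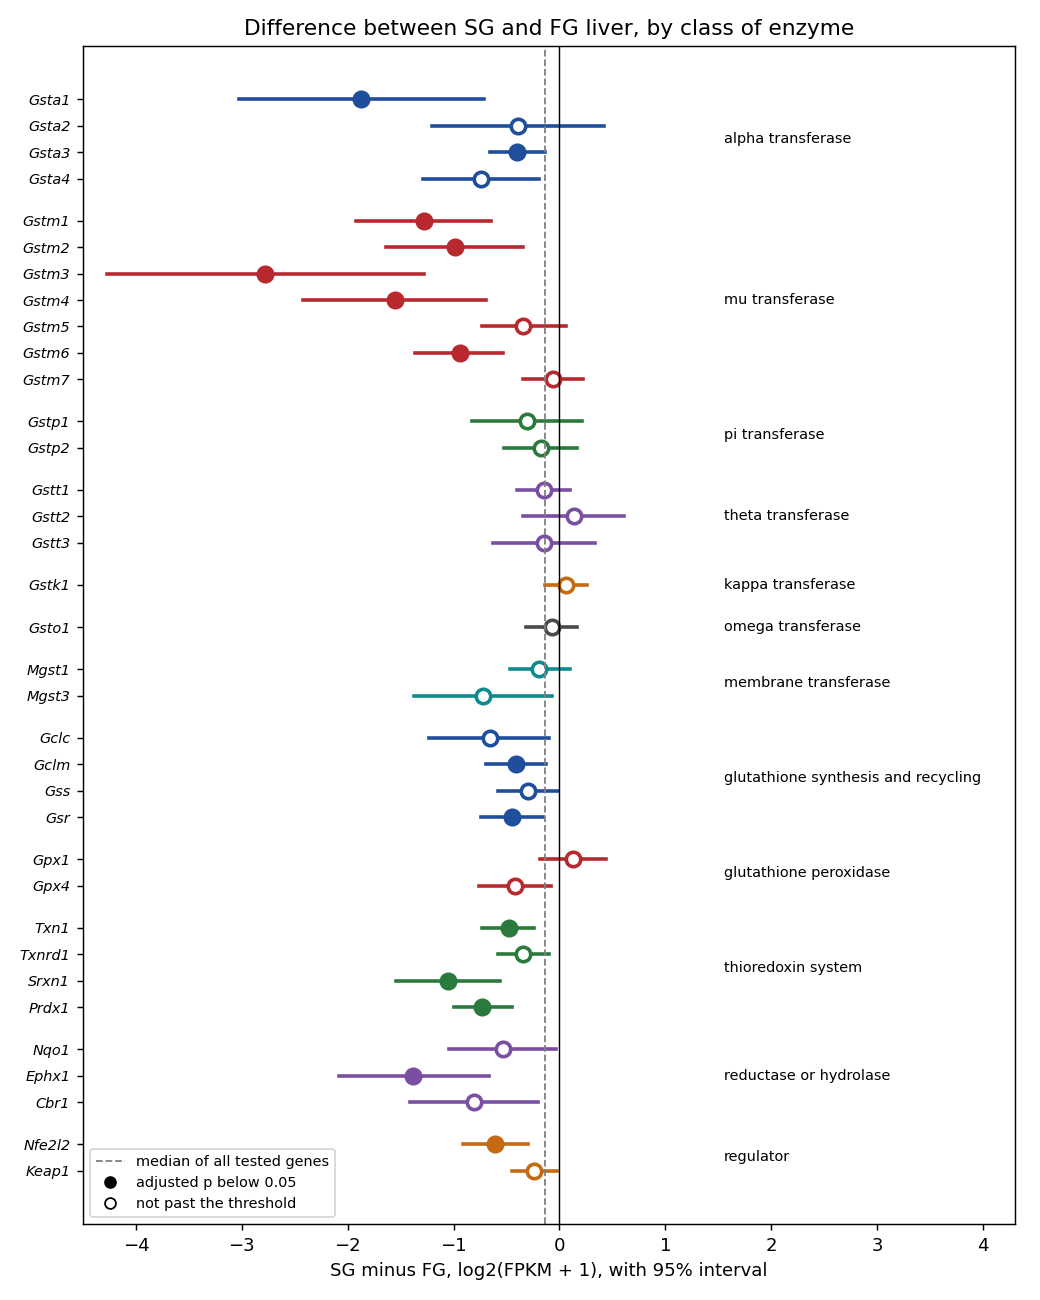
Difference between SG and FG liver for each of the 35 tested genes, on log2(FPKM + 1), grouped by class; points are limma estimates, bars are 95% intervals, filled points passed an adjusted p of 0.05, and the dashed line is the median of all tested genes at -0.135. The filled points all lie left of 0, and the lowest is Gstm3 at -2.78.

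By class, the listed transferases that fell were of the alpha and mu classes; Gstp3, a pi-class gene outside the 37, also fell and is given with the other genes. Among the 11 alpha and mu transferases 7 fell, beside 15.6% of all tested genes. Their median difference was -0.94, against -0.135 for all tested genes. Among the 9 transferases of the pi, theta, kappa, omega and membrane classes, limma and voom each called 0, with 1 lower and 0 higher at an unadjusted p below 0.05, and the median difference was -0.15. The difference between these groups of classes was not tested. Over all 20 transferases 7 fell with a median of -0.36, beside 5 of the 10 glutathione and thioredoxin enzymes with a median of -0.44. After median-ratio scaling 3 of the 20 and 2 of the 10 were called lower, beside 4.71% of all tested genes. Those 3 transferases were all of the mu class, and 0 of the 4 alpha transferases stayed called. Transferases took 1.13 ± 0.183% of all summed FPKM in SG and 1.69 ± 0.303% in FG (SD, n = 4 each).

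The mu class lies in 1 cluster on chromosome 3, and its reading frames are alike. The first 90 coding bases of the 5 mu genes that fell are shown from GENCODE vM21 to let the reader judge how well fragments can be assigned; capitals mark bases that differ from Gstm1 at the same place.
Gstm1: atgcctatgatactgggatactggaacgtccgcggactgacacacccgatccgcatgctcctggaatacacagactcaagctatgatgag
Gstm2: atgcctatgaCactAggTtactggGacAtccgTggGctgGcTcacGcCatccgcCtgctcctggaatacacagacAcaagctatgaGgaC
Gstm3: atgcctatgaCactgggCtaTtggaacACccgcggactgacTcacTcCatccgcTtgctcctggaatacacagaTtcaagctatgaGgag
Gstm4: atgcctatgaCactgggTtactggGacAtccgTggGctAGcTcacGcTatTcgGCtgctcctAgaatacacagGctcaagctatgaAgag
Gstm6: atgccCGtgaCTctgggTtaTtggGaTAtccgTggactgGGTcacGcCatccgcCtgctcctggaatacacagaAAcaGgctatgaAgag

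Over whole coding sequences Gstm1 and Gstm3 were 89.4% identical, and the other mu pairs were 68.2% to 86.1% identical. No stretch of 150 bases of the Gstm1, Gstm2, Gstm4, Gstm5, Gstm6 or Gstm7 transcripts recurred exactly in another annotated gene, and 3.44% of such stretches of Gstm3 recurred in Gm8834. In shorter stretches of 50 bases, 28.8% of Gstm3 and 23.1% of Gstm1 recurred in another annotated gene. Those genes were mainly the pseudogenes Gstm2-ps1 and Gm8834, and the rest included the other gene of the pair.

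Gstm1, the most abundant mu transferase here, had 1329, 669, 948 and 744 FPKM in SG livers 101, 103, 104 and 105, against 2920, 1439, 2949 and 1789 FPKM in FG livers 93, 94, 95 and 96. The groups did not overlap, and FG 93 and FG 95 stood highest. The difference was -1.28 (SE 0.282, limma adjusted p = 0.0168), and it was -0.85 without those libraries (adjusted p = 0.137).

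Gstm3 showed the largest fitted difference of the 35. Its FPKM were 66.8, 18.3, 24.8 and 20.9 in SG and 507, 86.9, 437 and 82.4 in FG. SG 101 was the highest SG liver and still lay below FG 96, the lowest FG liver. Gstm3 differed by -2.78 (SE 0.664, limma adjusted p = 0.0223), by -1.55 without FG 93 and FG 95 (adjusted p = 0.122). The call was also lost without any 1 of FG 93, FG 95, SG 103, SG 104 or SG 105.

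Gstm4 was at 23.4, 11.2, 14.7 and 6.16 FPKM in SG and at 54.7, 26.8, 55.9 and 27.1 FPKM in FG. Gstm6 was at 48.9, 29.8, 33 and 25.5 FPKM in SG and at 70.6, 62.3, 73.2 and 55.5 FPKM in FG. For both genes every SG liver lay below every FG liver, and SG 101 was the highest of its group. The differences were -1.55 for Gstm4 (SE 0.384, limma adjusted p = 0.025) and -0.94 for Gstm6 (SE 0.184, limma adjusted p = 0.0117). Gstm6 passed the threshold whichever single library was left out, whereas Gstm4 lost it without FG 93, FG 95, SG 103 or SG 105.

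Gstm2 had 52.1, 28.6, 26.7 and 34.4 FPKM in SG, against 93.6, 51, 100 and 47.4 FPKM in FG. Here SG 101 lay above FG 94 and FG 96, so the groups overlapped. Gstm2 differed by -0.99 (SE 0.288, limma adjusted p = 0.0415), and the call was lost without any 1 of FG 93, FG 95, SG 103, SG 104 or SG 105. Gstm5 averaged 8.15 ± 1.78 FPKM in SG and 10.5 ± 2.17 FPKM in FG, with no call (SD, n = 4 each). Gstm7 averaged 30.9 ± 5.6 FPKM in SG and 32 ± 2.11 FPKM in FG, also with no call (SD, n = 4 each). In RefSeq positions (GRCm38.p6), the genes run along chromosome 3 in the order Gstm5, Gstm7, Gstm6, Gstm3, Gstm2, Gstm1 and Gstm4, between 107895854 and 108045179. The 5 that fell are the 5 neighbours from Gstm6 to Gstm4, and Gstm5 and Gstm7 lie together at the other end.

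**Figure D2:**
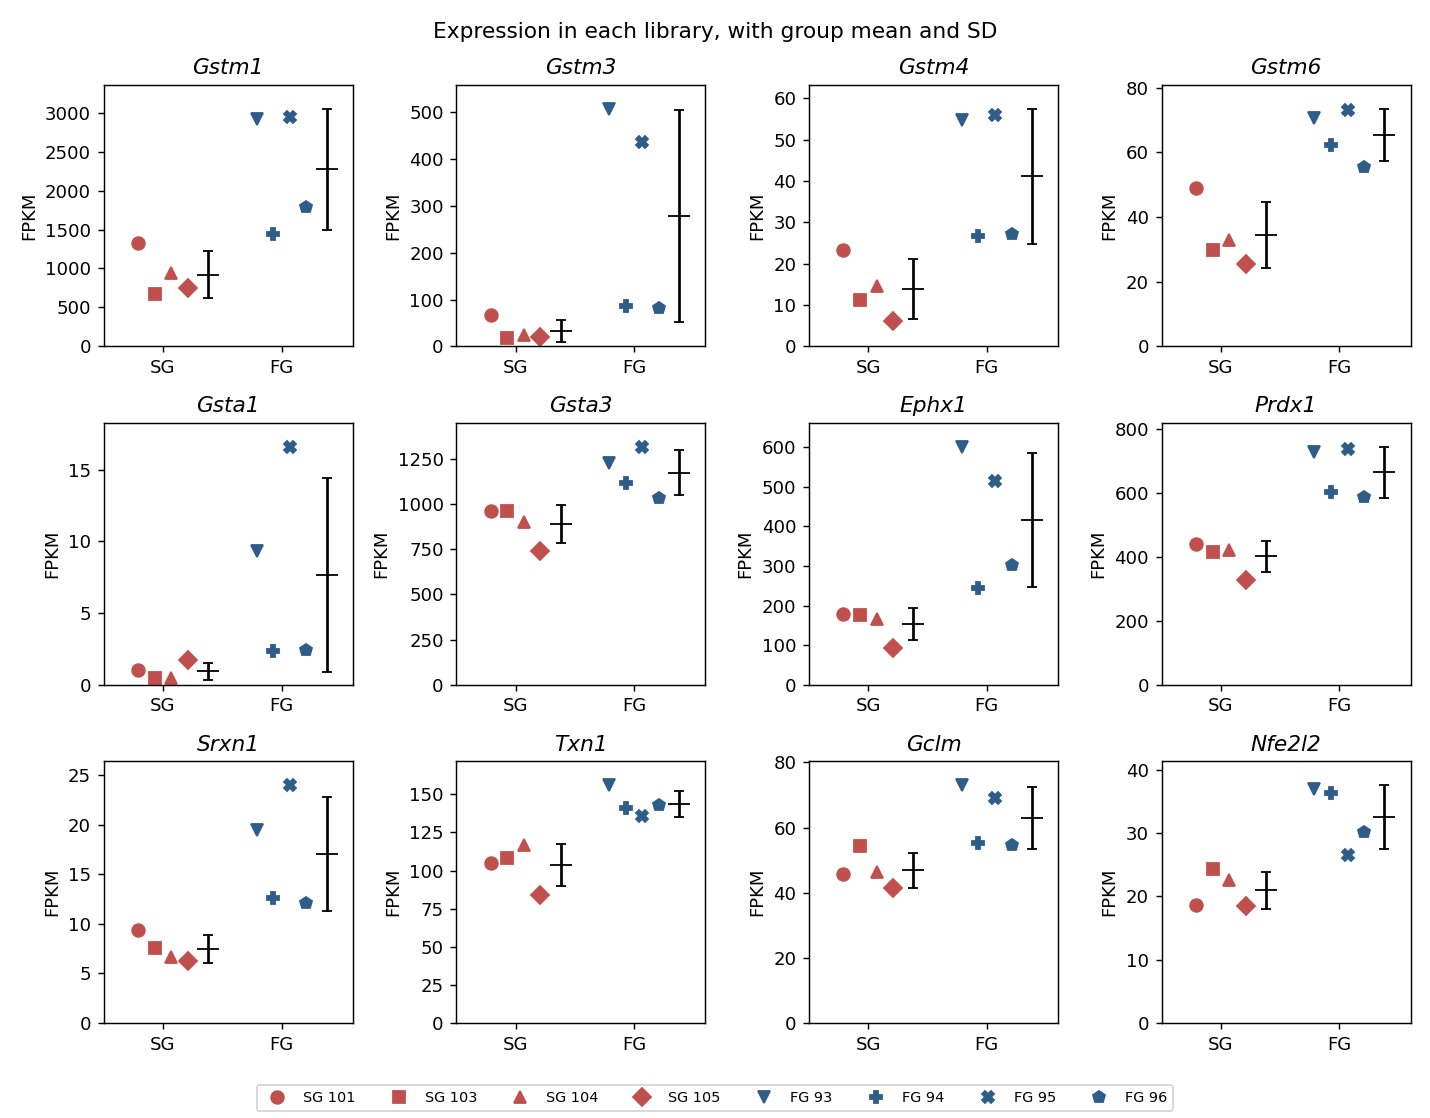
FPKM of 12 of the genes called lower, in each SG library (red) and each FG library (blue), with the group mean and SD at the right of each group; the vertical axes start at 0. In all 12 panels the SG points lie below the FG points, and FG 93 and FG 95 stand apart from FG 94 and FG 96 for Gstm3, with 507 and 437 against 86.9 and 82.4 FPKM.

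Alpha transferases act on lipid peroxidation products and other electrophiles. Gsta1 and its neighbour Gsta2 share their first 90 coding bases exactly, shown here from GENCODE vM21.
Gsta1: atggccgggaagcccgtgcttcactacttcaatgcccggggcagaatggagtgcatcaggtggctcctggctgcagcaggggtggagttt
Gsta2: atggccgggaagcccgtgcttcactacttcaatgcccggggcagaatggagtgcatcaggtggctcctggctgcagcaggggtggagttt

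The pair is 97.6% identical over the coding sequence, and 73.7% of 150-base stretches of Gsta1 and 26.8% of those of Gsta2 recur in another annotated gene. Of the Gsta1 stretches, 62.4% recur in Gm3776 and 14.3% in Gsta2. Of the Gsta2 stretches, 15.4% recur in Gm10639 and 14.4% in Gsta1. The split of reads among all these genes is therefore uncertain. Gsta1 had 1.04, 0.477, 0.433 and 1.74 FPKM in SG, from 14 to 58 fragments, against 9.32, 2.38, 16.6 and 2.41 FPKM in FG. The groups did not overlap, and FG 93 and FG 95 again stood far above the other FG livers. Gsta1 passed the filter through its FG libraries, and its difference was -1.87 (SE 0.515, limma adjusted p = 0.0351). The Gsta1 call was lost without any 1 of 5 libraries and after median-ratio scaling (limma adjusted p = 0.061). The sum of Gsta1 and Gsta2 was 26.1 ± 7.94 FPKM in SG and 43.5 ± 26 FPKM in FG (SD, n = 4 each). This sum leaves out Gm3776 and Gm10639, so it does not settle the split. Gsta2 alone was not called (-0.39, limma adjusted p = 0.472), and its difference was 0.25 without FG 93 and FG 95.

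Gsta3, the most abundant alpha transferase here, had no 150-base stretch in common with another gene. It was at 962, 960, 898 and 739 FPKM in SG and at 1226, 1117, 1316 and 1032 FPKM in FG. The groups did not overlap, with a narrow gap between SG 101 and FG 96. Gsta3 differed by -0.40 (SE 0.117, limma adjusted p = 0.0416), and the call was lost without any 1 of 6 libraries. It was also lost after median-ratio scaling (-0.23, limma adjusted p = 0.243). Gsta4, known for the lipid aldehyde 4-hydroxynonenal, averaged 57.5 ± 14.9 FPKM in SG and 98.7 ± 35.3 FPKM in FG and missed the threshold (SD, n = 4 each; limma adjusted p = 0.0632).

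Mgst1, a membrane transferase, and Gstp1, the main pi transferase of mouse liver, were among the 5 most abundant of the 37 genes. Mgst1 had 2061, 2028, 1852 and 1399 FPKM in SG and 2092, 2094, 2095 and 1981 FPKM in FG. FG 96 lay below SG 101 and SG 103, so the groups overlapped, and SG 105 was lowest. The difference of -0.19 had a 95% interval of -0.47 to 0.10 (limma adjusted p = 0.322).

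Gstp1 and Gstp2 are also close copies, as their first 90 coding bases show, with capitals where Gstp2 differs.
Gstp1: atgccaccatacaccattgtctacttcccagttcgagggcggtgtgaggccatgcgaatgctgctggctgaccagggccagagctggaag
Gstp2: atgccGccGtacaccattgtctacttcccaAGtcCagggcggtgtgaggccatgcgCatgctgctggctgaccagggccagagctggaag

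They are 98.1% identical over the coding sequence, and 41.8% of 150-base stretches of Gstp1 recur elsewhere. Of the Gstp2 stretches, 49.4% recur in another annotated gene, with 43.4% in Gstp1 and 29.8% in Gstp-ps. The split of reads among these genes is therefore uncertain, above all for the far scarcer Gstp2. Gstp1 was at 1231, 1358, 892 and 653 FPKM in SG and at 1437, 941, 1305 and 1302 FPKM in FG. Values of the groups interleaved, with SG 103 above every FG liver except FG 93. The difference was -0.31 with a 95% interval of -0.83 to 0.21 (limma adjusted p = 0.368). Gstp2 averaged 9.34 ± 1.81 FPKM in SG and 10.6 ± 1.71 FPKM in FG (SD, n = 4 each). Gstt1, Gstt2, Gstt3, Gstk1, Gsto1 and Mgst3 were not called either, with differences between -0.72 for Mgst3 and 0.14 for Gstt2. For Gstt1, Gstt3 and Gsto1 the sign turned positive after median-ratio scaling, and 21.7% of 150-base stretches of Gstt3 are shared with Gm20441.

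**Figure D3:**
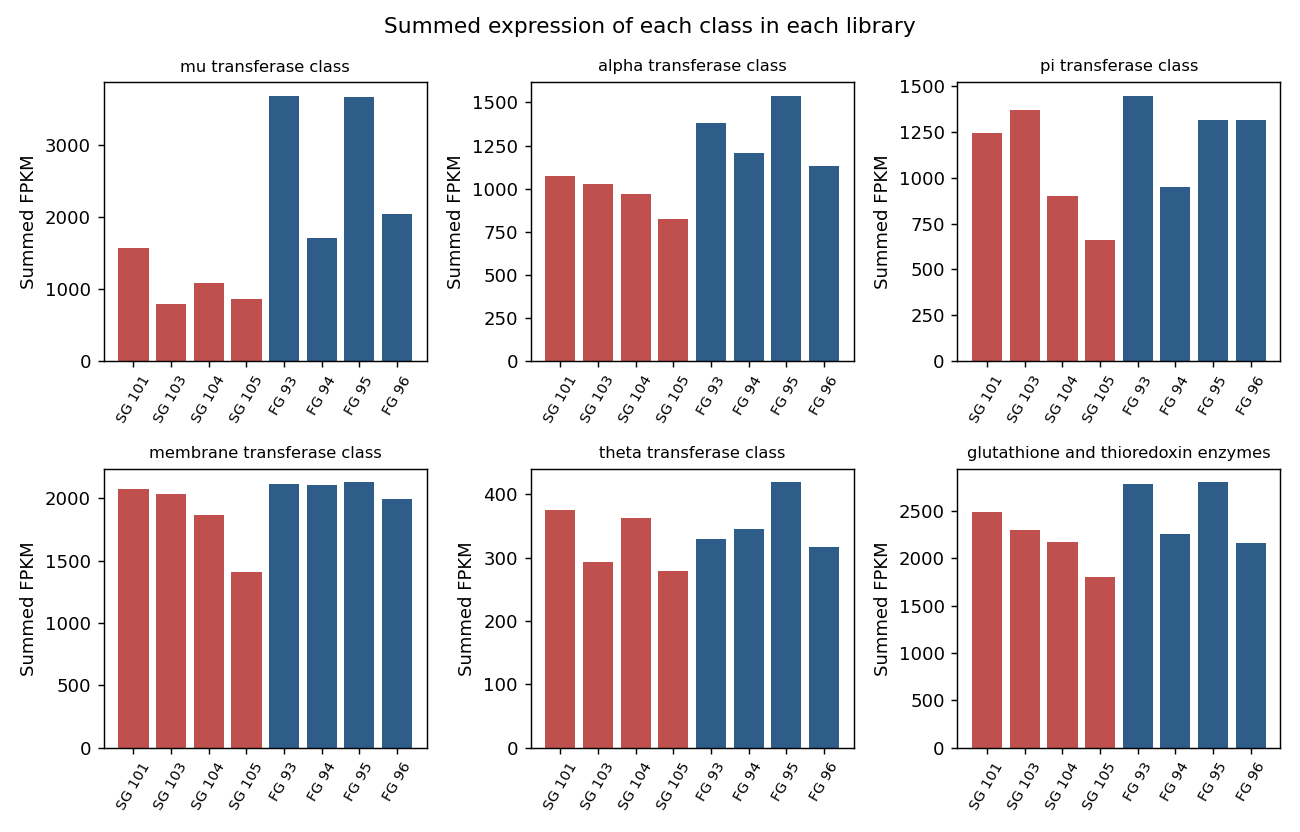
Summed FPKM of the mu, alpha, pi, membrane and theta transferase classes and of the 10 glutathione and thioredoxin enzymes in each SG library (red) and each FG library (blue). The mu class lies between 794 and 1569 in SG and between 1706 and 3688 in FG, while the pi class interleaves.

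Glutathione is made by glutamate-cysteine ligase, with Gclc its catalytic and Gclm its modifier subunit, and by glutathione synthetase, Gss; Gsr regenerates it from the oxidised form. Gclm and Gsr fell, beside 15.6% of all tested genes. All 4 had negative differences, as did 69.9% of all tested genes. Gclm had 45.8, 54.2, 46.4 and 41.3 FPKM in SG, against 73, 55.4, 69.2 and 54.5 FPKM in FG. SG 103 came within 1 FPKM of FG 96, and the groups did not overlap. Gclm differed by -0.41 (SE 0.125, limma adjusted p = 0.0479), a call lost without any 1 of 6 libraries.

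Gsr had 16.8, 16.8, 15.9 and 13.3 FPKM in SG and 24.5, 19.1, 25.4 and 18.6 FPKM in FG, with no overlap. Its difference was -0.45 (SE 0.128, limma adjusted p = 0.0386). The Gsr call was lost without any 1 of 5 libraries and after median-ratio scaling (limma adjusted p = 0.17). Gclc had 40.9, 52.8, 50.5 and 31.1 FPKM in SG and 114, 54.2, 65.5 and 54.5 FPKM in FG. The SG livers lay below the FG livers, with FG 93 far above the rest, and the difference of -0.66 was not called (SE 0.252, limma adjusted p = 0.0922). Gss averaged 25.8 ± 1.57 FPKM in SG and 32.2 ± 5.85 FPKM in FG (SD, n = 4 each; limma adjusted p = 0.125).

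Neither glutathione peroxidase was called. Gpx1, the main cytosolic peroxidase, had 1614, 1436, 1310 and 1120 FPKM in SG and 1369, 1144, 1415 and 1065 FPKM in FG. The groups interleaved, and the difference of 0.13 (limma adjusted p = 0.528) turned to -0.11 after quantile normalization. Gpx4, which reduces lipid hydroperoxides, averaged 146 ± 15 FPKM in SG and 198 ± 43.1 FPKM in FG (SD, n = 4 each; limma adjusted p = 0.0789), and 40.4% of its 150-base stretches recur in the pseudogene Gpx4-ps2.

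In the thioredoxin system, 3 of 4 genes fell, beside 15.6% of all tested genes. For all 4 every SG liver lay below every FG liver, against 21.8% of tested genes. Prdx1, a peroxiredoxin that removes hydrogen peroxide, had 441, 415, 421 and 329 FPKM in SG and 728, 604, 739 and 588 FPKM in FG. The highest SG liver stayed well below the lowest FG liver. Prdx1 differed by -0.73 (SE 0.122, limma adjusted p = 0.00712), the lowest adjusted p of the 35, and it passed whichever single library was left out.

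Srxn1, sulfiredoxin, which restores overoxidised peroxiredoxins, was at 9.35, 7.57, 6.67 and 6.25 FPKM in SG and at 19.5, 12.6, 24 and 12.1 FPKM in FG. FG 93 and FG 95 were highest, and FG 94 and FG 96 still lay above SG 101. The difference was -1.05 (SE 0.216, limma adjusted p = 0.0141), and it also passed whichever single library was left out.

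Txn1, thioredoxin, had 105, 108, 117 and 84.1 FPKM in SG and 156, 141, 136 and 143 FPKM in FG. The FG livers lay close together, and all stood above SG 104. Txn1 differed by -0.48 (SE 0.108, limma adjusted p = 0.0184), and by -0.46 without FG 93 and FG 95 (adjusted p = 0.133).

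Txnrd1, which reduces thioredoxin, had 27.7, 29.3, 30.6 and 27 FPKM in SG and 43.3, 33.8, 38.2 and 31.9 FPKM in FG. The groups did not overlap, but its difference of -0.34 missed the threshold (SE 0.106, limma adjusted p = 0.051).

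Ephx1, microsomal epoxide hydrolase, had 178, 177, 167 and 93 FPKM in SG, against 601, 244, 516 and 303 FPKM in FG. SG 105 was far below the other SG livers, and no SG liver reached FG 94. Ephx1 differed by -1.38 (SE 0.313, limma adjusted p = 0.0189), and by -0.86 without FG 93 and FG 95 (adjusted p = 0.137).

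Nqo1, a quinone reductase widely used as a readout of NRF2, was scarce in these livers. It had 1.73, 1.26, 1.66 and 1.66 FPKM in SG, from 154 to 228 fragments, and 3.99, 1.89, 4.09 and 1.6 FPKM in FG. FG 96 lay among the SG livers, FG 94 lay just above them, and FG 93 and FG 95 were highest. The difference of -0.53 was not called (SE 0.225, limma adjusted p = 0.124), and it was -0.09 without those libraries.

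Carbonyl reductase Cbr1 was at 57.3, 47.6, 64 and 65.4 FPKM in SG and at 153, 72.2, 145 and 69.3 FPKM in FG. The groups did not overlap, but FG 94 and FG 96 lay just above SG 105. Cbr1 differed by -0.81 and was not called (SE 0.269, limma adjusted p = 0.0633). Cbr3 had 0.415, 0.516, 0.296 and 0.664 FPKM in SG and 4.21, 0.329, 5.84 and 0.542 FPKM in FG, with the 2 high values again in FG 93 and FG 95 (exact two-sided permutation p = 0.257).

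Slc7a11, which imports cystine for glutathione synthesis, was near the limit of detection, with 0, 5, 1 and 0 fragments in SG and 23, 5, 6 and 24 fragments in FG. A count of 0 allows up to 0.00816 FPKM in SG 101 and 0.00826 FPKM in SG 105, for counting error only. The exact two-sided permutation p was 0.0571.

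Nfe2l2 fell and Keap1 did not pass. Nfe2l2 had 18.6, 24.3, 22.5 and 18.4 FPKM in SG and 37, 36.3, 26.5 and 30.2 FPKM in FG. The groups did not overlap, and FG 95 was here the lowest FG liver, unlike in most of the other genes. Nfe2l2 differed by -0.61 (SE 0.135, limma adjusted p = 0.0178), and by -0.65 without FG 93 and FG 95 (adjusted p = 0.0766).

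Keap1 had 10.8, 11, 10.8 and 9.28 FPKM in SG and 11.9, 12.5, 14.2 and 11.6 FPKM in FG. Every SG liver lay below every FG liver by a small margin, and the difference was -0.24 (SE 0.0957, limma adjusted p = 0.108). Transcript levels do not measure the NRF2 protein or its location.

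The spread within groups followed the same libraries across many of the genes. FG 93 and FG 95 were the 2 highest FG libraries for 24 of the 35, or 68.6%, against 30.1% of all tested genes. The same held for 13 of the 18 further NRF2-linked genes, 13 of the 23 further glutathione and peroxide enzymes and 7 of 7 macrophage markers. SG 101 was the highest SG library for 23 of 35, or 65.7%, against 35.5% of tested genes, and SG 105 was the lowest for 23 of 35, against 34.5%. Genes of 1 library are not independent, so these shares are descriptions. Without FG 93 and FG 95 the sign stayed negative in 29 of 35, against 70% of tested genes.

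**Figure D4:**
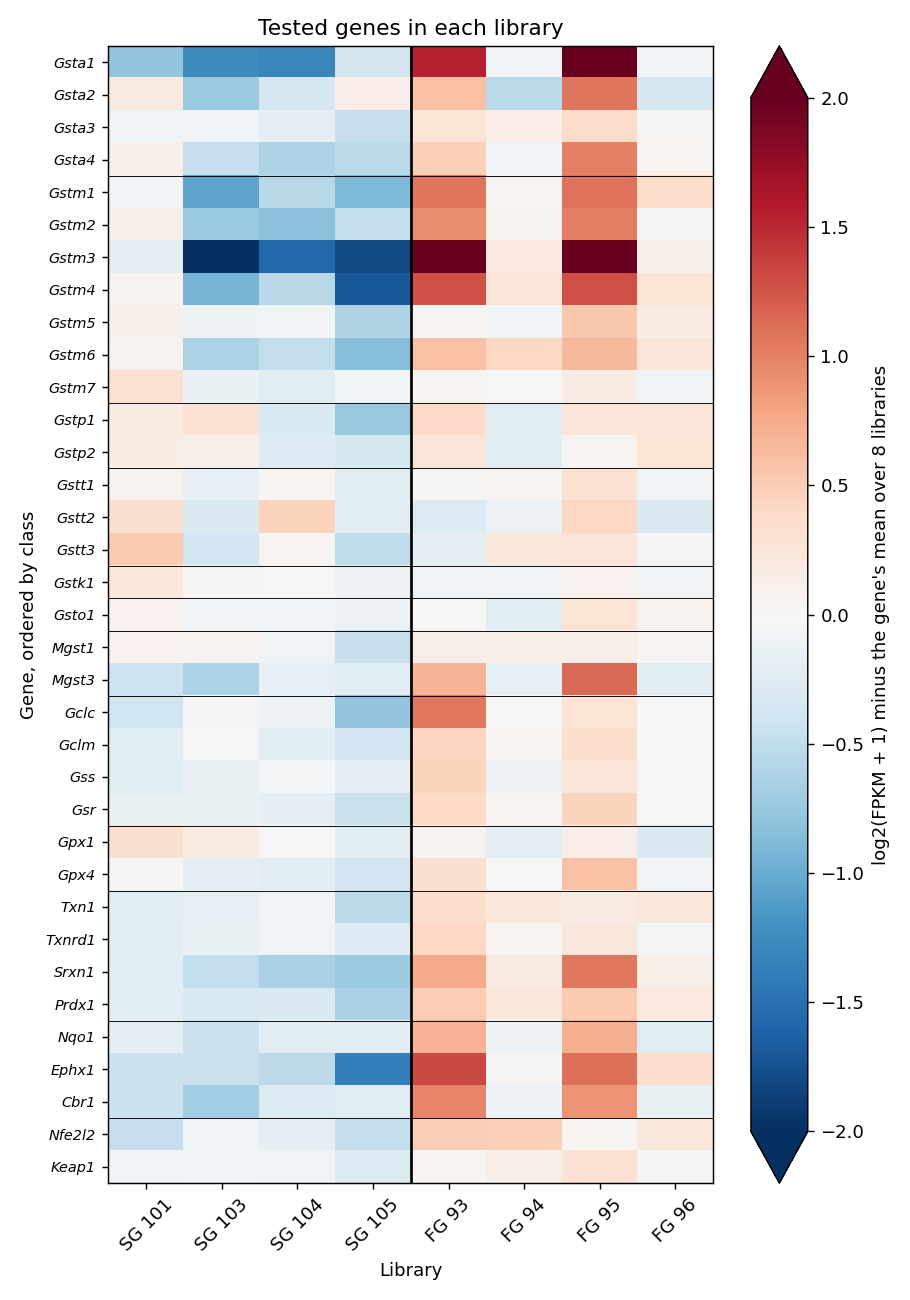
Log2(FPKM + 1) of each tested gene in each library minus the gene's mean over the 8 libraries, with SG at the left and FG at the right; the colour scale is clipped at -2 and 2. FG 93 and FG 95 are the reddest columns, and they were the 2 highest FG libraries for 24 of the 35 genes.

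Other listed genes gave the surroundings of this pattern. Of 18 tested further genes linked to NRF2, 8 fell, beside 15.6% of all tested genes, with a median difference of -0.50; 7 were called after median-ratio scaling. Malic enzyme Me1 averaged 28.9 ± 9.33 FPKM in SG and 283 ± 93.1 FPKM in FG (SD, n = 4 each), a difference of -3.25 (SE 0.288, limma adjusted p = 0.000469). The pentose phosphate genes G6pdx, Pgd and Tkt fell by 0.93, 1.61 and 1.20, and the others were Ftl1, Blvrb, Aox1 and Ugt1a6a. Me1, G6pdx and Pgd make NADPH, which fat synthesis also uses. Hmox1, a heme oxygenase and common NRF2 target, averaged 13.4 ± 2.46 FPKM in SG and 13.8 ± 1.94 FPKM in FG (SD, n = 4 each; limma adjusted p = 0.854).

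Among 23 tested further glutathione and peroxide enzymes, 3 fell (Txnrd3, Glrx2 and Glo1) and 3 rose (Ggct, Oplah and Hagh), beside 15.6% and 3.73% of all tested genes, so the share that fell was near the background. After median-ratio scaling none of Txnrd3, Glrx2 and Glo1 was called (limma adjusted p = 0.112, 0.233 and 0.0832), while Ggct, Oplah and Hagh still were. Ggct and Oplah act in glutathione breakdown, and Glo1 and Hagh are the consecutive glyoxalase enzymes. Glo1 averaged 99.1 ± 20 FPKM in SG and 146 ± 7.33 FPKM in FG, and Hagh averaged 66.5 ± 7.26 FPKM in SG and 50.4 ± 2.12 FPKM in FG (SD, n = 4 each). Their differences were -0.58 and 0.39 (limma adjusted p = 0.0241 and 0.0216). Of 7 NRF2 partners and repressors 1 was called, a share near that of all tested genes: Rbx1, a subunit of the ubiquitin ligase used by KEAP1, differed by -0.34 (limma adjusted p = 0.0386). Rbx1 did not pass with median ratios (adjusted p = 0.261) and did not pass in every fit with 1 library left out (adjusted p up to 0.107). The PXR gene Nr1i2 rose by 0.68 (SE 0.117, limma adjusted p = 0.00753), and the CAR gene Nr1i3 did not pass (0.46, limma adjusted p = 0.243). Of 3 further transferases tested, the pi-class gene Gstp3 fell by 0.82 (SE 0.169, limma adjusted p = 0.0143; 0.0507 after median-ratio scaling).

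Markers of other cells were called in shares that must be read against the 15.6% of all tested genes that fell. Of 7 sinusoidal endothelial markers 1 was called lower, Clec4g, and the list summed to 68.1 to 80.9 FPKM in SG and 89.1 to 109 FPKM in FG. Clec4g, at a mean of 34.7 FPKM in SG and 51.6 FPKM in FG, carried most of that gap. The median difference of the 7 was -0.09, against -0.135 for all tested genes. The sign was negative in 5 of the 7, with Stab1 at 0.03 and Lyve1 at 0.24. Of 2 tested cholangiocyte markers 1 was called lower, Spp1, and the list summed to 13 to 19.1 FPKM in SG and 21.9 to 27.7 FPKM in FG. Spp1, at a mean of 12.4 FPKM in SG and 19 FPKM in FG, made up most of that sum. Krt19, Krt7 and Epcam also averaged lower in SG, and Sox9 averaged higher. The 1 neutrophil marker tested, S100a9, was called lower after passing the filter mainly through its FG libraries, and that list summed to 0.906 to 1.5 FPKM in SG and 2.35 to 3.78 FPKM in FG. After median-ratio scaling none of Clec4g, Spp1 and S100a9 was called (limma adjusted p = 0.0623, 0.0758 and 0.0677).

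Of 5 red cell markers Alas2 rose, and of 7 hepatocyte markers Apoa1, Cps1 and Serpina1a rose, beside 3.73% of all tested genes. The 6 tested stellate cell markers had 0 calls by limma or voom and 0 at an unadjusted p below 0.05, and the list summed to 68.4 to 96.1 FPKM in SG and 69 to 122 FPKM in FG. The 7 macrophage markers likewise had 0 calls and 0 at an unadjusted p below 0.05, and summed to 111 to 216 FPKM in SG and 115 to 186 FPKM in FG. All 7 macrophage markers were nonetheless highest in FG 93 and FG 95 among the FG libraries, the libraries in which most of the 35 genes were highest. Of 10 male-biased liver genes 4 rose, again beside 3.73% of all tested genes. That list summed to 8476 to 14868 FPKM in SG and 1905 to 3699 FPKM in FG. Of 4 tested female-biased genes Cyp2b9 was called lower, beside 15.6% of all tested genes. The sign was negative in only 2 of the 4. Acot3 and Cyp2c40 were higher in SG, by 0.52 and 0.19, and were not called (limma adjusted p = 0.591 and 0.732). Cyp2b9 was at 0.0496 to 0.355 FPKM in SG and 18.4 to 84.1 FPKM in FG, so it passed the filter only through FG. Cyp2a4, whose reads can be shared with a close copy, had 0.312, 0.16, 0.326 and 1.01 FPKM in SG and 219, 5.74, 239 and 1.3 FPKM in FG, so that FG 93 and FG 95 stood out there too. The part of these in the differences above was not tested.

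Promoters were searched for the core of the antioxidant response element, TGACNNNGC, on both strands. RefSeq windows from 250 bases before to 50 after each start site (GRCm38.p6) were found for 33 of the 37 genes, all but Gclc, Gsr, Gsta4 and Gstt2. The core occurred in 9 of the 33 (Gclm, Gsta3, Gstm5, Gstm7, Mgst1, Nfe2l2, Prdx1, Srxn1 and Txnrd1), against 14% of all genes with a window. The longer form, with an A directly after the core, occurred in Gsta3 and Txnrd1, against 3.45% of all genes. A match is only a run of letters, and its absence says only that these letters are not in this window.

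Stretches around the match are shown for 5 of these genes, with the matched letters in capitals on the strand of the gene. They lie at chr1:21240408-21240527 (plus), chr3:122245367-122245486 (plus), chr4:116685410-116685529 (plus), chr2:75704794-75704913 (minus) and chr10:82859058-82859177 (plus), the last at the second of 3 start sites. Gstm3, the gene with the largest difference, had no match; its 250 bases before the start, chr3:107969175-107969424 (minus), are shown for comparison.
Gsta3: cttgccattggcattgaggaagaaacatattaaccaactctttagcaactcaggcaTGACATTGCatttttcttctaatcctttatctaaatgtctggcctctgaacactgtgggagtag
Gclm: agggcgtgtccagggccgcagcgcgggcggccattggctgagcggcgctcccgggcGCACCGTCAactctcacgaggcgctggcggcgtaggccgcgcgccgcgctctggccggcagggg
Prdx1: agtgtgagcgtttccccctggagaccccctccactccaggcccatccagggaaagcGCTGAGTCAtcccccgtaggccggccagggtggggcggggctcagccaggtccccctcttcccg
Nfe2l2: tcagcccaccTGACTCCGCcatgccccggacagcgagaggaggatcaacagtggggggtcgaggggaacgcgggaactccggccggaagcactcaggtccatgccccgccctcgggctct
Txnrd1: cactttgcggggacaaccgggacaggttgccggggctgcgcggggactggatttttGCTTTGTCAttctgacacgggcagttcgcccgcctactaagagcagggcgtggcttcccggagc
Gstm3: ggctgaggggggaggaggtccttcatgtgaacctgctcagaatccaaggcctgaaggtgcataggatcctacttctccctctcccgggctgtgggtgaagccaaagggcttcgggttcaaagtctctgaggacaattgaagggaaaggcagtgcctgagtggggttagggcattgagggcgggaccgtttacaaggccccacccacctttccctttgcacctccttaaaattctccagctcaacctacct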

How the data were processed

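RNA-seq of 8 mouse livers was analysed from the deposited table of FPKM values per gene. The authors aligned reads with HISAT2 and expressed genes as FPKM, per the labels; the submitters' processing notes also name fastp, HTSeq, DESeq2 and the builds GRCm38 and mm10. Tool versions, strand and the treatment of multiply mapped reads are not given in the sources used here. No deposited sample column was left unmatched. Groups came from the library names. The series' design text gives 4 mice per group, and nothing else describes the libraries' sources, so the spread behind each p-value is that between libraries and may be partly technical.

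FPKM values were whole multiples of 1 fragment within 0.02 fragments for 21357 of 21358 genes. The total was fixed from 467 genes whose length matched the union of annotated exons, and recovered fragments summed to within 0.0392% of it. Intervals and limits from fragments cover counting error only.

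The test was limma 3.58.1 (R 4.3.3) with a mean-variance trend on log2(FPKM + 1), two-sided, for genes at 1 FPKM or more in 4 libraries, with Benjamini-Hochberg adjustment over all 9867; it was tested on simulated data. Genes below the filter had an exact permutation test over 70 assignments. Alternatives were a pseudocount of 0.1, no filter or a mean of 5 FPKM, median-ratio and quantile scaling, rescaling without mitochondrial and top genes, no trend, library weights, voom on recovered fragments, and each library left out. Genes given library by library were those called, those whose groups did not overlap, the 5 most abundant, and 8 chosen for their roles; further genes were the called ones of the lists, with Hmox1, Nr1i3, Alb, Cyp2a4 and the sex-chromosome and marker genes added after their values were seen. The genes and lists were chosen with earlier results of these data known. Promoters came from RefSeq (GRCm38.p6) and coding sequences from GENCODE vM21.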

Additional observations from a re-analysis of the deposited data

Results flagged for a closer look

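In 6 of the 71 groups of 4 libraries examined, 1 library lay far from the other 3 by Dixon's criterion for 4 values, which chance alone meets in about 1 in 20 groups. Gstm3 was at 66.8 FPKM in SG 101, above the other SG libraries at 18.3 to 24.8. Nqo1 was at 1.26 FPKM in SG 103, below the others at 1.66 to 1.73. In SG 105, Ephx1 was at 93 FPKM, below the others at 167 to 178, and Keap1 was at 9.28 FPKM, below the others at 10.8 to 11. Gstk1 was at 97 FPKM in FG 95, above the other FG libraries at 85.9 to 86.8. Mgst1 was at 1981 FPKM in FG 96, below the others at 2092 to 2095.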

How the results depend on the processing

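With 1 library left out, the count of all genes called ranged from 791 (without FG 93) to 2355 (without SG 101), beside 1912. The count of the 35 genes called lower ranged from 3 (without FG 93) to 16, beside 14. It was 7 genes without FG 95 or SG 105 and 8 without SG 103 or SG 104. Gstm6, Srxn1 and Prdx1 stayed called without any single library; Gstm1, Txn1, Ephx1 and Nfe2l2 lost the call only without FG 93. No filter gave 5 of the 35 and 1133 genes, median-ratio scaling 7 and 983, and quantile normalization 1078 genes. Of all calls, 80.8% were lower, against 47.1% after median-ratio scaling. Without both FG 93 and FG 95, chosen after seeing the data, 0 of the 35 and 211 genes were called; only 2 FG libraries remain in that fit. Signs turned for genes that were not called: Gstm7 to 0.11 after median-ratio scaling, 0.06 after quantile normalization, 0.01 without SG 104 (-0.17 at the lowest with 1 library left out) and 0.01 without both FG libraries; Gsto1 to 0.10 after median-ratio scaling, 0.00 without FG 95 (-0.16 at the lowest with 1 library left out) and 0.03 without both; Gstt1 to 0.03 and Gstt3 to 0.02 after median-ratio scaling; Gsta2 to 0.25 without both; and Gpx1 to -0.11 after quantile normalization. The cause was not tested. No paired analysis was possible because the groups share no replicate numbers. Depth limits Slc7a11, Cbr3 and Gsta1 in SG.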
